A study of Mus musculus with 5 samples.

Results

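Myonuclei, the nuclei inside multinucleated skeletal muscle fibers, were compared between adult mice and pups at postnatal day 5 (P5). A nucleus was taken as a myonucleus when it held over 400 and under 25000 RNA molecules, counted as unique molecular identifiers (UMIs), and when at least 1% of them came from Ttn, the gene of the giant sarcomere protein titin. By this rule 4435 of 5115 adult nuclei and 1736 of 3753 P5 nuclei within the UMI limits were myonuclei. Together these were 6171 of 8868 nuclei of the 2 libraries, and the whole series held 21209 nuclei within the same limits.

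The series profiled RNA and open chromatin in the same nuclei of mouse hindlimb muscle, freed of skin and bone, with the 10x Multiome kit. Wild-type mice (WT C57bl6n) were sampled in the embryo at E14.5 and E18.5, at P5 and as adults of 8 weeks of both sexes (the sex of the pups is not given), and a Cacna1s-/- library at E18.5 is not compared here. The adult library pooled 4 hindlimbs and the P5 library pooled 8 hindlimbs, and neither mice nor pups can be told apart within a pool. Nuclei positive and negative for PCM1, a protein used to sort myonuclei, were sorted apart and mixed again in equal volumes before loading, so the share of myonuclei among all nuclei was set by the sort and is not compared between ages.

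Muscle fibers form by fusion of myoblasts before birth and in the first weeks of life, and their nuclei then serve one shared cytoplasm. In this window fibers replace embryonic and neonatal myosin heavy chains by adult ones, lose acetylcholine receptors away from the nerve, and gain the calcium release and energy systems of adult muscle. A cluster of imprinted genes around Dlk1 and Meg3, of which only the copy from a given parent is read, is known for its high activity in fetal and newborn muscle.

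With 1 library on each side there was no replicate check and no test between the ages. Levels are UMIs summed over the myonuclei of a library, as counts scaled to equal library totals (CPM, UMIs per 1e6 UMIs). Ranges in brackets after a fold are exact 95% intervals for counting error only, so differences between mice, dissections and libraries are not covered. A gene was measured when it had at least 20 UMIs in either library, and it was called higher or lower in adult at a ratio of at least 2. A level of 0 was replaced by a floor of 3 UMIs over the library, and such a ratio is written as "at least".

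The adult myonuclei held 19820285 UMIs and the P5 myonuclei 12276836. A nucleus had a median of 3356 UMIs and 1369 genes in adult against 6438 UMIs and 2130.5 genes at P5. Ttn, which the rule used, made up 7.48% of adult and 3.08% of P5 UMIs, and 14 adult against 132 P5 nuclei lay just inside the limit, between 1% and 1.5% Ttn. All 15 muscle genes checked had UMIs in both libraries. Of these 8 were within 2-fold between the ages, among them Neb, Dmd, Trdn and Cacna1s, which encode nebulin, dystrophin, triadin and the voltage sensor of the fiber. The 7 past 2-fold were Ttn and Myh2, which were higher in adult, and Acta1, Mybpc1, Myh3, Myh7 and Myh8, which were lower. Neb had 9420 CPM in adult and 10094 CPM at P5, against 160 and 38.2 CPM in nuclei with under 0.1% Ttn. Markers of other cell types were more frequent on the P5 side, and their part in the results was not tested beyond leaving out the nuclei that hold most of them. Nuclei with over 0.5% of their UMIs in the 97 markers of 10 other cell types made up 20.2% of P5 myonuclei (350) and 0.834% of adult ones (37), and in P5 they held less Ttn (1.89% against 3.44% of UMIs in the other P5 myonuclei). The summed level of a marker list ran from 2.02 to 415.2 CPM over the 10 lists in adult and from 30.2 to 2031 CPM at P5. The widest gap in CPM was that of 12 mesenchymal markers, all lower in adult, with 67.9 CPM in adult and 2031 CPM at P5, and 44.2 and 275.7 CPM without those nuclei. These markers are part of the 97, so their fall without those nuclei follows from the limit itself. The tendon markers Scx and Kera, the progenitor marker Vcam1, the neuron marker Nefl and the erythroid markers Hba-a1, Hba-a2, Slc4a1 and Hbb-y were among those at 0 in adult. Counts are therefore given with and without the nuclei rich in such markers. Libraries shared 33 barcodes, 12 of them among myonuclei, and no doublet caller was run. Xist stood at 256 CPM in adult and 1026 CPM at P5, the Y-linked gene Uty at 319 and 184 CPM and the Y-linked gene Ddx3y at 38.4 and 39.5 CPM, so both pools held both sexes, and a difference in their proportion cannot be told apart from age.

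Far more genes were lower in adult myonuclei than higher. Of 13824 measured genes, 1145 (8.28%) were at least 2-fold higher in adult, 4685 (33.9%) were at least 2-fold lower and 7994 lay within 2-fold. The median log2 ratio of adult over P5 was -0.40. Differences of at least 10-fold were seen for 103 genes higher and 1421 genes lower in adult. Without the marker-rich nuclei, 12782 genes were measured, 1419 (11.1%) were higher and 3256 (25.5%) were lower, and 1058 and 3164 genes were called the same way in both counts. Of the lower genes, 762 were no longer lower without these nuclei, and others no longer had enough UMIs. Scaling moved the balance as well: with edgeR's trimmed mean (TMM) factors the median moved by 0.38 to -0.02 and the counts were 1959 higher and 3848 lower. Higher genes were then 33.7% of the calls, and 34.2% with median-of-ratios factors, against 19.6% as counted first.

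The genes named first are the 15 with the highest and the 15 with the lowest ratio by the near bound of the interval, among genes of at least 50 CPM in the higher library. All 30 kept their direction and stayed past 2-fold under every alternative for RNA, and all 15 of each group also had their extreme at adult among the 4 wild-type ages. The level plot shows both libraries gene by gene.

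**Figure D1:**
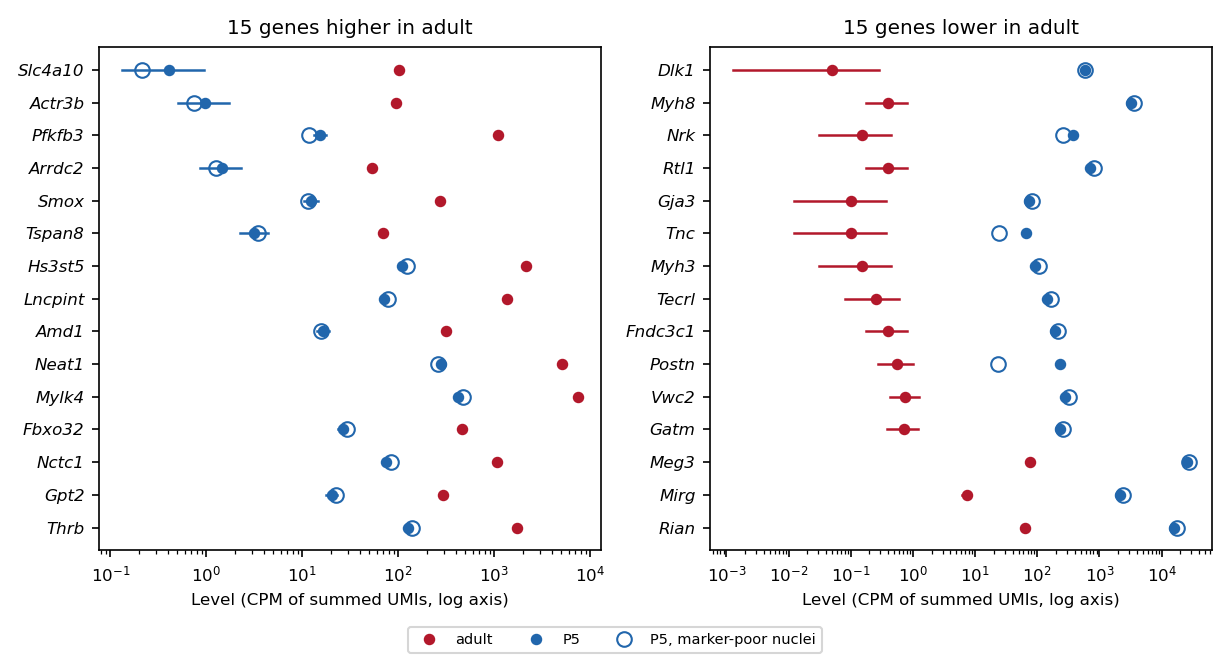
Levels of the 15 genes highest (left) and the 15 lowest (right) in adult over P5 myonuclei, in CPM of summed UMIs on a log axis, with lines for exact 95% counting intervals. Filled points are all myonuclei of a library and open circles are P5 myonuclei without the nuclei rich in markers of other cell types; adult and P5 points do not meet for any of the 30 genes, and Tnc and Postn are the 2 genes whose P5 level moves most without those nuclei.

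The genes highest in adult encoded transporters, metabolic enzymes, kinases and nuclear RNAs. Slc4a10, a sodium-driven bicarbonate transporter (chromosome 2, 62046462 to 62326730), had 2020 UMIs in adult (101.9 CPM) and 5 at P5 (0.407 CPM), a 250-fold difference (107 to 772). Actr3b, a subunit of the actin-branching complex, stood at 94.6 CPM in adult and 0.978 CPM at P5 (96.7-fold, 55.2 to 187.5). Both were close to undetected before adulthood: in the E14.5 library Slc4a10 had 4.13 and Actr3b 5.31 CPM, and in the E18.5 library 2.50 and 1.48 CPM.

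Pfkfb3, the enzyme that makes the main activator of phosphofructokinase and thereby of glycolysis, had 1088 CPM in adult and 15.2 CPM at P5 (71.4-fold, 61.8 to 82.9). In nuclei thinned to 1000 UMIs each, 51.6% of adult but 1.15% of P5 myonuclei held a Pfkfb3 UMI. Ttn-poor nuclei, those with under 0.1% Ttn, gave 21.7% in adult and 1.74% at P5, so the P5 share in myonuclei was no higher than this background. The ages thus differed in Ttn-poor nuclei as well. Unthinned shares of myonuclei were 71.6% and 6.74%. Thinning left out 464 adult and 78 P5 myonuclei that had fewer UMIs, and the Ttn-poor nuclei had median depths of 2044.5 UMIs in adult and 4429.5 at P5.

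Mylk4, of the myosin light chain kinase family, was the gene of this group with most UMIs, 147660 in adult and 5120 at P5. Its level was 7450 CPM in adult and 417 CPM at P5 (17.9-fold, 17.4 to 18.4), after 596 CPM at E14.5 and 424 CPM at E18.5. The adult library alone stood apart, since the 3 younger libraries lay within 1.5 times of each other.

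Hs3st5, a sulfotransferase that modifies heparan sulfate chains, had 2156 CPM in adult and 109.7 CPM at P5 (19.7-fold, 18.6 to 20.8). A Hs3st5 UMI was held by 76.9% of thinned adult and 7.42% of thinned P5 myonuclei (unthinned, 87.5% and 17.2%), against 5.33% and 1.04% of Ttn-poor nuclei. Thrb, the thyroid hormone receptor beta, had 1747 CPM in adult and 127 CPM at P5 (13.8-fold, 13.07 to 14.48). A Thrb UMI was held by 75.2% of thinned adult and 10.3% of thinned P5 myonuclei. In Ttn-poor nuclei the shares were 33.2% and 4.14%, so the ages differed there too. Fbxo32, the muscle ubiquitin ligase atrogin, had 464 CPM in adult and 26.3 CPM at P5 (17.6-fold, 15.8 to 19.8).

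A pair of polyamine enzymes was in the group. Smox, which oxidizes spermine, had 274 CPM in adult and 12.4 CPM at P5 (22.2-fold, 18.9 to 26.2). Amd1, whose product supplies the aminopropyl groups for spermidine and spermine, had 313 CPM in adult and 16.5 CPM at P5 (19.03-fold, 16.54 to 22). Gpt2, the mitochondrial alanine aminotransferase, had 289 CPM and 20.3 CPM (14.3-fold, 12.6 to 16.3).

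Nuclear RNAs and membrane proteins completed the list. Neat1, the RNA scaffold of paraspeckles in the nucleus, had 5093 CPM in adult and 279.9 CPM at P5 (18.2-fold, 17.6 to 18.8). Lncpint, a long noncoding RNA, had 1350 CPM and 70.8 CPM (19.1-fold, 17.8 to 20.4). Both were also found outside muscle fibers, since adult Ttn-poor nuclei held 1763 CPM of Neat1 and 1264 CPM of Lncpint. The ages differed there too. A Neat1 UMI was held by 65.2% of thinned adult and 19.6% of thinned P5 Ttn-poor nuclei, and a Lncpint UMI by 67.2% and 2.56%. The difference was therefore not particular to myonuclei. Arrdc2, an arrestin-like protein, had 52.7 CPM in adult and 1.47 CPM at P5 (36.0-fold, 22.6 to 60.9), and Tspan8, a tetraspanin of cell membranes, had 69.2 CPM and 3.18 CPM (21.8-fold, 15.9 to 30.8).

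Nctc1, a noncoding transcript on chromosome 7 (142544609 to 142558596, minus strand), had 1080 CPM in adult and 73.8 CPM at P5 (14.6-fold, 13.7 to 15.7). Its levels at E14.5 and E18.5 were 0.885 and 3.20 CPM, so each later library held more than the one before. On the same strand, 16.9 kb away at higher coordinates, lies H19, an imprinted noncoding RNA, and 72.6 kb further lies Igf2, the fetal insulin-like growth factor. H19, added after its values were seen, had 3.13 CPM in adult and 191.5 CPM at P5 (61.2-fold lower), and Igf2 had 1.26 CPM and 320 CPM (254-fold lower, 172 to 393). These neighbors thus differed between the ages in opposite directions.

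The genes lowest in adult included 5 transcripts of the Dlk1-Meg3 domain, which lie within 297 kb of chromosome 12. Dlk1, a membrane protein of the Delta-like family read from the paternal copy, had a lone UMI in adult and 7225 at P5, or 0.0505 and 588.5 CPM. The ratio was 11664-fold, with a counting interval of 2093 to 460781. Rtl1, a protein derived from a retrotransposon and also read from the paternal copy, had 0.404 CPM in adult and 712.7 CPM at P5 (1766-fold lower, 896 to 4091).

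The maternally read noncoding RNAs Meg3, Rian and Mirg were far lower in adult as well. Meg3 (chromosome 12, 109541001 to 109571726) had 1523 UMIs in adult and 312670 at P5, or 76.8 and 25468 CPM (331-fold lower, 315 to 349). Rian had 62.5 CPM and 15874 CPM (254-fold, 240 to 269), and Mirg had 7.42 CPM and 2129 CPM (287-fold, 244 to 340). Together the 7 transcripts of the domain, with 2 gene models that lack a proper symbol, took 5.05% of all P5 UMIs and 0.0161% of adult UMIs. Rtl1 lies between Meg3 and Rian on the opposite strand and overlaps neither in the coordinates used, and the strand setting of the counting is not given in the sources used here.

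The difference ran through nearly every nucleus. At P5 the domain took a median of 5.09% of a nucleus's UMIs, from 1.89% at the 5th to 9.32% at the 95th percentile, and the adult median was 0. Conversely the 15 genes highest in adult took a median of 2.16% of an adult nucleus's UMIs (1.09% to 3.38%) and 0.0957% of a P5 nucleus's. These 15 genes were chosen by their ratio in the same nuclei, so a higher summed share in adult was built in. Only the spread over nuclei is read from it. In the thinned nuclei, Meg3 was seen in 99.7% of P5 and 1.76% of adult myonuclei (unthinned, 99.9% and 2.91%). Ttn-poor nuclei gave 87.2% at P5 and 39.8% in adult, so Meg3 was far rarer in adult myonuclei than in the other adult nuclei. Shares in thinned Ttn-poor nuclei were also lower in adult for Dlk1 (40.6% at P5 and 0.820% in adult) and Rian (74.6% and 22.5%). The same held for Mirg (27.3% and 4.51%) and Rtl1 (2.73% and 0.410%). A lower adult level of the domain was therefore not particular to myonuclei.

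**Figure D2:**
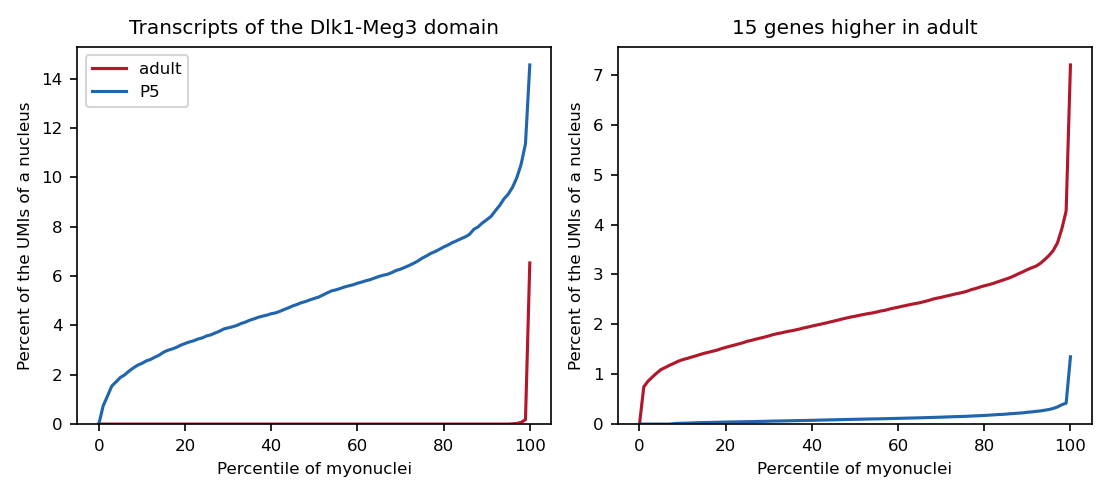
Share of each nucleus's UMIs taken by the 7 transcripts of the Dlk1-Meg3 domain (left) and by the 15 genes highest in adult (right), in percent, against the percentile of the nucleus within its library. The P5 line of the domain passes 5.09% at its middle while the adult line leaves 0 only at the last percentiles. The 2 lines of the right panel change places, with medians of 2.16% in adult and 0.0957% at P5. That direction was built in, since the 15 genes were chosen by their ratio in the same nuclei.

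A few adult nuclei were the exception. With a limit set after the values were seen, 17 adult myonuclei (0.383%) had at least 1% of their UMIs in Meg3, Rian and Mirg, from 1.13% to 5.98%, and the highest share among all others was 0.750%. These 17 held 2348 of the 2908 adult UMIs of the 3 RNAs (80.7%), all 8 adult Rtl1 UMIs and the lone Dlk1 UMI, while 4245 adult myonuclei (95.7%) had no UMI of the 3. The 17 nuclei had 5.20% to 11.8% Ttn and 483 to 13423 UMIs, and 15 of them held Myh4, the adult fast myosin. Pax7, a marker of muscle stem cells, had a UMI in 2 of the 17. None held a UMI of Myh8, Myh3, Gatm, Vwc2 or Igf2, and none shared a barcode with the P5 library. Beside the domain itself, Prima1, an anchor of acetylcholinesterase, was 28.3-fold higher in them than in other adult myonuclei (14.7 to 50.2, 13 UMIs in 4 nuclei). Iqsec1 was 6.77-fold higher (38 UMIs in 10 nuclei), as was Mrc1, one of the macrophage markers used (17 UMIs in 9 nuclei). Pde10a was 5.17-fold higher (15 UMIs in 5 nuclei) and Lama2 3.31-fold (90 UMIs in 5 nuclei). These genes too are named after their values were seen, and the origin of the 17 nuclei was not tested.

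Both developmental myosins were among the lowest genes. Myh8, the neonatal myosin heavy chain (chromosome 11, 67277124 to 67308634), had 8 UMIs in adult and 39553 at P5, or 0.404 CPM (0.174 to 0.795) and 3222 CPM (7982-fold lower, 4051 to 18490). Myh3, the embryonic myosin heavy chain, had 0.151 CPM in adult and 93.6 CPM at P5 (618-fold lower, 211 to 3003), after 1382 CPM at E14.5. A Myh8 UMI was found in 67.5% of thinned P5 myonuclei and in 0 of 3971 adult ones (unthinned, 82.6% and 0.135%), and in 2.29% of Ttn-poor P5 nuclei.

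The other genes among the 15 lowest were of mixed function. Nrk, a kinase gene on the X chromosome, had 0.151 CPM in adult and 370.9 CPM at P5 (2451-fold, 838 to 11888), but its P5 level was higher in Ttn-poor nuclei (1512 CPM) and 260 CPM in P5 myonuclei without marker-rich nuclei. Gja3, a connexin of gap junctions, had 0.101 CPM and 73.6 CPM (729-fold, 201 to 6028), and stood at 0.211 CPM in Ttn-poor P5 nuclei. Tecrl, a reductase-like protein of the endoplasmic reticulum, had 0.252 CPM and 144.7 CPM (574-fold, 245 to 1769) and 0.526 CPM in Ttn-poor P5 nuclei. The P5 signal of Gja3 and Tecrl was therefore almost wholly in Ttn-rich nuclei, unlike that of Nrk.

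Gatm, the enzyme of the first step of creatine synthesis, had 0.706 CPM in adult and 234.5 CPM at P5 (332-fold, 197.5 to 608). Vwc2, a secreted inhibitor of bone morphogenetic proteins, had 0.757 CPM and 280.8 CPM (371-fold, 225 to 664). Fndc3c1, an X-linked protein with fibronectin domains, had 0.404 CPM and 192.8 CPM (478-fold, 242 to 1108). Tnc and Postn, the matrix proteins tenascin C and periostin, went from 65.8 and 230 CPM at P5 to 24.6 and 23.7 CPM without the marker-rich nuclei, and their adult levels were 0.101 and 0.555 CPM. Both stayed far past 2-fold without them (242-fold and 155-fold).

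Myosin genes separated the nuclei more finely. Among adult myonuclei the fast myosin with most UMIs was Myh4 in 3535 nuclei (79.7%), Myh1 in 537 (12.1%) and Myh2 in 249 (5.61%), and 88 (1.98%) had none of the 3. At P5 the counts were 830 (47.8%), 455 (26.2%) and 76 (4.38%), with 351 nuclei (20.2%) holding none. In sums, Myh4 had 2976 CPM in adult and 1588 CPM at P5 (1.88-fold), Myh1 819 and 622 CPM (1.32-fold) and Myh2 333 and 109 CPM (3.05-fold, 2.88 to 3.24). Of the 3 adult fast myosins only Myh2 was thus past 2-fold as counted first. Myh4 lay just under that limit (log2 ratio 0.91), and the shift of 0.38 with TMM factors takes it past 2-fold. A Myh4 UMI was held by 80.1% of thinned adult and 43.2% of thinned P5 myonuclei. The main difference in myosin was the near absence of Myh8 in adult. Myh7, the slow myosin, had 20.0 CPM in adult and 117 CPM at P5 (5.85-fold lower, 5.23 to 6.56). The myosin genes of chromosome 11 are near-identical in places, so reads can be split among them.

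Neonatal and adult myosin RNA were seen in the same P5 nuclei. Thinned to 1000 UMIs, 689 of 1658 P5 myonuclei (41.6%) held both Myh8 and an adult fast myosin, 430 (25.9%) Myh8 alone, 386 (23.3%) an adult fast myosin alone and 153 (9.23%) neither. No adult nucleus of 3971 held Myh8 after thinning, which at that depth allows a share with a UMI of up to 0.0929%, while 0.135% of unthinned adult nuclei held one, and 3787 (95.4%) held an adult fast myosin. The plot by age shows how the genes exchanged places between E18.5 and adult.

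**Figure D3:**
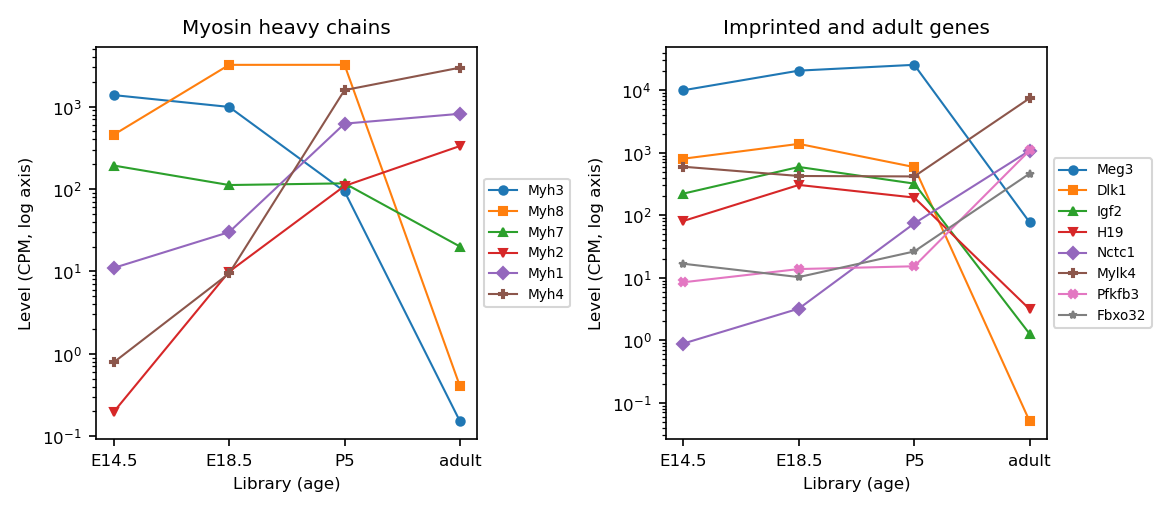
Levels of 6 myosin heavy chain genes (left) and of 8 imprinted or adult-high genes (right) in myonuclei of the 4 wild-type libraries, in CPM of summed UMIs on a log axis, 1 library per age. Myh8 holds between 3219 CPM (E18.5) and 3222 CPM (P5) and then stands at 0.404 CPM in adult, and Nctc1 climbs from 0.885 CPM at E14.5 to 1080 CPM in adult while its neighbors Igf2 and H19 end below their level at every younger age.

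Open chromatin at gene starts was read as ATAC counts summed over each library's own peaks. Peaks were taken within 1 kb of the interval from the first to the last deposited start site of a gene. Sums were divided by the library's counts in all peaks and set on the same CPM scale. Where start sites lie far apart, every peak between them is counted, as for Thrb (17660896 to 17981529). The intervals of Lncpint, Pfkfb3, Ryr3, Utrn and Rian were long as well. The adult myonuclei held 39139944 ATAC counts in 81124 peaks and the P5 myonuclei 11987817 in 67013 peaks. Of 16078 genes with a start-site peak in both libraries and at least 20 counts, 265 (1.65%) had at least 2 times more and 1928 (12.0%) at least 2 times fewer counts in adult. The median log2 ratio was -0.13.

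RNA and start-site ATAC leaned the same way. Of 927 genes higher by RNA and measured by ATAC, 121 (13.1%) had at least 2 times more ATAC counts in adult and 17 had fewer. Of 3695 genes lower by RNA, 890 (24.1%) had fewer and 26 had more, and of 7531 genes within 2-fold by RNA, 49 had more and 93 fewer. Among genes at least 10-fold apart by RNA, 23 of 65 higher (35.4%) and 541 of 1010 lower (53.6%) were also past 2-fold by ATAC in that direction. Across 12153 genes, which are not independent replicates and come from the same nuclei, Pearson's r of the log2 ratios was 0.60.

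Of the 15 genes highest in adult, 12 were measured by ATAC and 6 had at least 2 times more counts. The log2 ratios were 2.50 for Thrb, 2.26 for Mylk4, 1.24 for Lncpint, 1.098 for Gpt2, 1.09 for Pfkfb3 and 1.01 for Actr3b. The called length moves such sums: Thrb had 16 peaks over 14366 bases in adult and 3 peaks over 2700 bases at P5, or 13.2 and 12.4 CPM per kb of peak, and with only peaks shared by the libraries its log2 ratio was 1.34, and that of Lncpint 0.72. Smox (0.48), Arrdc2 (0.44), Neat1 (0.36), Fbxo32 (0.34), Amd1 (-0.35) and Hs3st5 (-0.49) were within 2-fold by ATAC while at least 17.6-fold higher by RNA. For these 6 genes a large RNA difference stood beside an ATAC difference of under 2-fold.

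Of the 15 lowest genes, 6 were measured by ATAC and 5 had fewer counts in adult. Meg3 had 51 counts in adult and 1676 at P5 (log2 ratio of start-site ATAC -6.75), over 1 peak of 898 bases in adult and 3 peaks of 2640 bases at P5, or 1.45 and 53.0 CPM per kb of peak. With the shared peak alone its log2 ratio was -4.72. It was followed by Gja3 (-3.19), Nrk (-3.18), Fndc3c1 (-2.59) and Gatm (-1.90), and Tnc lay within 2-fold (-0.46). Myh8, Vwc2, Dlk1 and Postn had a start-site peak at P5 alone, with 568, 479, 358 and 69 counts, so no ratio is given. Conversely Nctc1, Tspan8, Myh2 and Rian had a start-site peak in adult alone, with 2865, 372, 151 and 60 counts, the last against its RNA. Of the genes named from the lists, Myoz2, Ccnd2 and Fst also had an adult peak alone (169, 145 and 213 counts) while lower by RNA, and Pfkfb1 while higher. Slc4a10, Tecrl, Myh3, Rtl1, Mirg and Myh7 had none in either library.

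**Figure D4:**
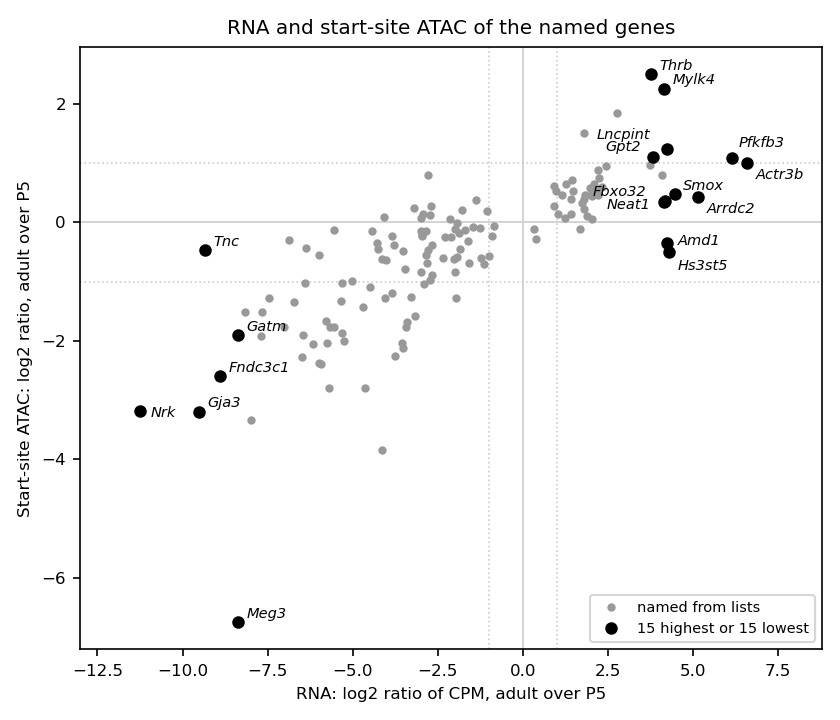
Log2 ratio of start-site ATAC CPM (vertical) against log2 ratio of RNA CPM (horizontal), adult over P5, for the named genes with a peak in both libraries. Black points are genes of the 15 highest and 15 lowest and grey points genes named from the lists, with dotted lines at 2-fold; Thrb and Mylk4 lie at top right, Meg3 is lowest at -6.75 (-4.72 with shared peaks alone), and Hs3st5 and Amd1 lie below 0 by ATAC while far to the right by RNA.

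The start-site sequences of 6 of these genes are shown because a called peak lies over them and its counts differed between the ages. They are RefSeq windows of the mouse build GRCm38.p6, from 250 bases before to 50 bases after the start, written in the direction of the gene. Capitals mark letters of the pattern CANNTG, the E-box of MyoD-family factors, and of the MEF2 consensus. CANNTG was found in 72.3% and MEF2 in 3.19% of all 32851 windows of this length in the table, searched on both strands, so a CANNTG match is common. A match describes the letters and is not a bound site.

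Those lower in adult come first. Myh8 lies at chr11:67276874-67277173 (plus strand), where P5 had 47.4 ATAC CPM and adult no peak. Gja3 lies at chr14:57057981-57058280 (minus strand), with 2.73 CPM in adult and 25.03 at P5. Meg3 lies at chr12:109540746-109541045 (plus strand), where the peak over the window had 1.30 and 34.5 CPM. Myh8 held a MEF2 match and 2 of CANNTG, Gja3 a MEF2 match, and Meg3 neither. TATAAA, the letters of the TATA box, was searched on both strands, was found in 13.6% of windows and matched in all 3. In Myh8 and Gja3 the match was the reverse complement TTTATA. It lay inside the MEF2 match, which began at -99 and -166 from the start. Meg3 had 2 overlapping matches.
Myh8: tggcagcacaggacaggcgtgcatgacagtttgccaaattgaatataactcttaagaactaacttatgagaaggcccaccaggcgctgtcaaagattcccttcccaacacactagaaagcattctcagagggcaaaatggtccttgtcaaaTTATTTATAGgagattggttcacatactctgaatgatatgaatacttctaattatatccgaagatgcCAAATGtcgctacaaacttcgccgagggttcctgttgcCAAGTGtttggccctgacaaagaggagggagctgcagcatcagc
Gja3: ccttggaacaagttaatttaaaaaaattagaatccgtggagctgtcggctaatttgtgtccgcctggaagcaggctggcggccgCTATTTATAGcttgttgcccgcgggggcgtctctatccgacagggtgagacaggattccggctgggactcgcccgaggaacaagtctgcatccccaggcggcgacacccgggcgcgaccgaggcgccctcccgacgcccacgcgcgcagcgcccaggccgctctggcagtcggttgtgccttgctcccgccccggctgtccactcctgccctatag
Meg3: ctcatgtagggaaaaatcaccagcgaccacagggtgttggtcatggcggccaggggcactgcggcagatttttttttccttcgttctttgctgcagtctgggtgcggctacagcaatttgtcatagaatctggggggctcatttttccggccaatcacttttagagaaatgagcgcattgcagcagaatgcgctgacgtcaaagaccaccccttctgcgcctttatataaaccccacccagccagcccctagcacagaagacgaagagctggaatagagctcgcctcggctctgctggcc

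Those higher in adult follow. Mylk4 lies at chr13:32783915-32784214 (minus strand), with 28.8 CPM in adult and 6.01 at P5. Its window overlaps the upper end of the deposited start-site interval (32781779 to 32783954). Gpt2 lies at chr8:85492326-85492625 (plus strand), with 54.3 and 25.4 CPM. Nctc1 lies at chr7:142558549-142558848 (minus strand), with 73.2 CPM in adult and no peak at P5. Mylk4 held a MEF2 match and 4 of CANNTG, among them CAGCTG (in 16.3% of windows), and also 1 match each of AGGTCA, the core of nuclear receptor sites (16.3%), and AGAACA, the core of glucocorticoid receptor sites (19%). Nctc1 held 1 match of CANNTG and Gpt2 no match of any pattern searched. Those patterns also included CATTCC, the core of TEAD sites (14.7%), and TGCTGA, the core of MAF sites (19.5%), which matched in none of the 6.
Mylk4: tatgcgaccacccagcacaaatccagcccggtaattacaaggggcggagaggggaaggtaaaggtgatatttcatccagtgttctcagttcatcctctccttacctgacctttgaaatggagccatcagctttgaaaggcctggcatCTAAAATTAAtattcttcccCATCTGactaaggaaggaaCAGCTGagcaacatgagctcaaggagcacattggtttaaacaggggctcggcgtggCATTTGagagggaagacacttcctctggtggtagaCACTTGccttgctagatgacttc
Gpt2: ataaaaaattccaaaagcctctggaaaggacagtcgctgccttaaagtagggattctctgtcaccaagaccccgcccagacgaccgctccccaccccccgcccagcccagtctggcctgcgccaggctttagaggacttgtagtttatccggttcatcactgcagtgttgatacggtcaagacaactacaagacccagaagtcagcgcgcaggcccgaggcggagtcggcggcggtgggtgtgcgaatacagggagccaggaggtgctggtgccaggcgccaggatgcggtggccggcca
Nctc1: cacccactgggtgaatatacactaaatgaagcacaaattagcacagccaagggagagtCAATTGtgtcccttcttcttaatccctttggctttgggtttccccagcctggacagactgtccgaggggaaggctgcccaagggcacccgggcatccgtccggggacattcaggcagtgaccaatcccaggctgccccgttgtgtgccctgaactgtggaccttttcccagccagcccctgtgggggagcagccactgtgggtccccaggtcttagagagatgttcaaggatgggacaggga

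The 27 gene lists placed these genes among their pathways. The lists were read against the shares over all measured genes given above, and the list plot shows their medians.

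**Figure D5:**
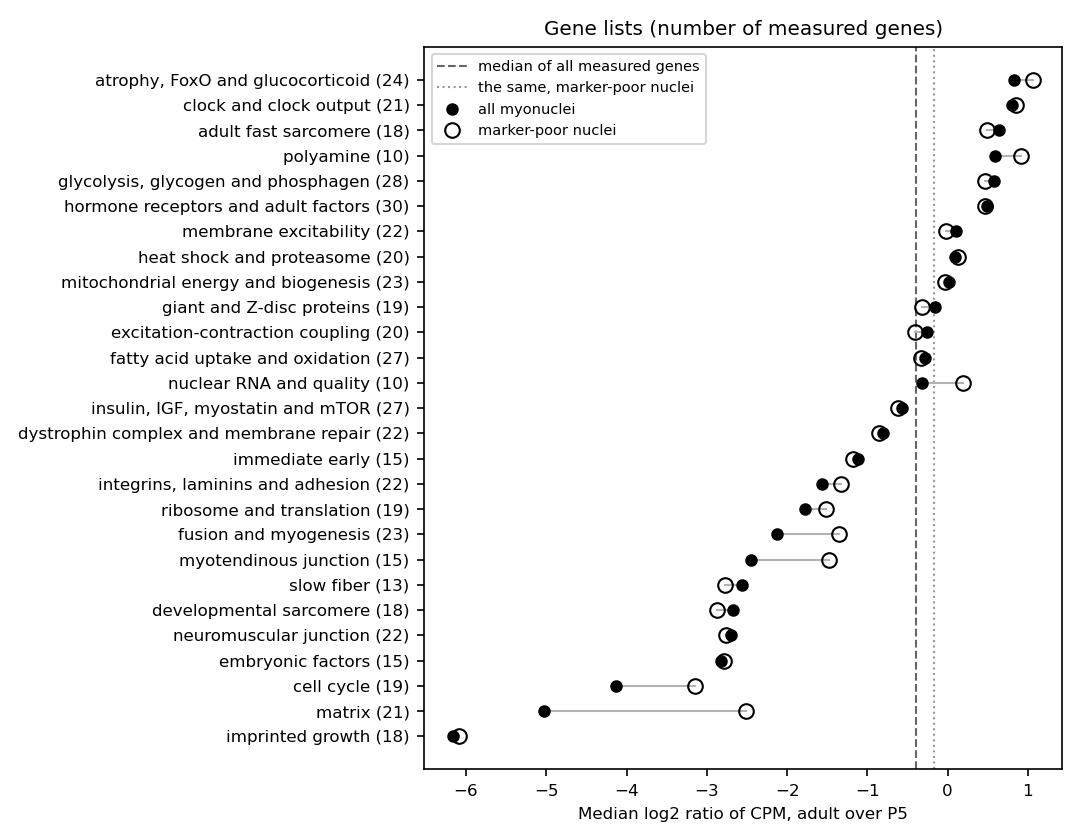
Median log2 ratio of RNA CPM, adult over P5, over the measured genes of each of 27 lists, with the number of measured genes in brackets. Filled points are all myonuclei, open circles leave out the marker-rich nuclei, and vertical lines are the medians of all measured genes (-0.40 and -0.17); the matrix list moves from -5.03 to -2.51 without those nuclei while the imprinted list stays near -6.1.

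Structural proteins of the sarcomere divided by developmental class. Of 18 developmental sarcomere genes 15 were lower in adult, 0 higher and 3 within 2-fold, with a median log2 ratio of -2.67. Actc1, the cardiac actin of developing muscle, had 5.30 CPM in adult and 92.3 CPM at P5 (17.4-fold, 14.3 to 21.5), and Tnnt2, the cardiac troponin T, had 0.151 and 8.72 CPM (57.6-fold, 19.2 to 284). Mybph, Nrap and Xirp2 were within 2-fold. All 13 slow fiber genes were lower (median -2.57), among them Casq2, the slow calsequestrin, at 6.86 and 369 CPM (53.8-fold, 45.4 to 64.3), Tnni1, the slow troponin I, at 1.97 and 36.8 CPM (18.7-fold) and Myoz2, a Z-disc protein of slow fibers, at 28.6 and 260 CPM (9.07-fold).

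Adult fast sarcomere genes were divided. Of 18, 6 were higher, 5 lower and 7 within 2-fold (median 0.64). With TMM factors 9 were higher and 4 lower (median 1.02), and among nuclei with Myh4 leading 3 were higher and 5 lower (median 0.01). Pvalb, the calcium buffer parvalbumin, had 704 CPM in adult and 202 CPM at P5 (3.49-fold), and Mylk2, the skeletal myosin light chain kinase, had 490 and 139 CPM (3.53-fold). In contrast Tnnc2, the fast troponin C, had 23.7 and 187 CPM (7.88-fold lower), Acta1, the skeletal actin, 103 and 674 CPM (6.58-fold lower) and Mylpf, a fast myosin light chain, 70.3 and 454 CPM (6.46-fold lower). At the start sites of these 3 genes ATAC was within 2-fold (log2 0.08, -0.96 and 0.29). Without the marker-rich nuclei Acta1 was past 2-fold fewer (log2 -1.25), while Tnnc2 (-0.187) and Mylpf (0.285) stayed within 2-fold. A UMI of Tnnc2, Acta1 and Mylpf was held by 2.40%, 4.91% and 3.93% of thinned Ttn-poor P5 nuclei, against 0.820% each in adult. Measured genes under 5 kb also leaned lower as a group (median log2 ratio -1.07). The part of gene length and of free RNA in these 3 differences was not tested. Of 19 giant and Z-disc proteins, 16 were within 2-fold, 2 were higher, among them Tcap, the titin cap (3.73-fold), and Pdlim3, an actinin-binding protein, was 3.84-fold lower (548 and 2105 CPM). With TMM factors 5 of the 19 were higher.

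Excitation-contraction coupling, the release of calcium on a nerve signal, differed in few of its genes. Of 20 genes 14 were within 2-fold, including Cacna1s, Ryr1, the main calcium release channel, Trdn and Atp2a1, the calcium pump. Ryr3, the release channel of developing muscle, had 36.2 CPM in adult and 2619 CPM at P5 (72.3-fold lower, 67.1 to 78.0). It had 2.05 log2 units fewer ATAC counts over its long start-site interval. Those counts came from 5 peaks of 4579 bases in adult and 8 of 7134 bases at P5, and with shared peaks alone the log2 ratio was -1.46. Thinned shares with a Ryr3 UMI were 1.71% and 65.9% (unthinned, 3.36% and 79.3%), against 2.05% and 1.31% in Ttn-poor nuclei. Sln, the pump inhibitor sarcolipin, had 0 UMIs in adult and 373 at P5 (30.4 CPM, at least 201-fold lower), and Mrln, another pump inhibitor, had 13.7 and 87.9 CPM (6.40-fold lower). Jph2, a junctophilin that ties the membranes together, was the lone higher gene at 786 and 335 CPM (2.35-fold).

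Ion channels of the membrane showed 6 genes higher, 5 lower and 11 within 2-fold of 22. Scn4b, a sodium channel subunit, had 66.6 and 14.3 CPM (4.65-fold higher). The T-type calcium channel Cacna1h had 1 and 178 UMIs (287-fold lower, 50.9 to 11414). Kcnn3, a calcium-activated potassium channel, had 14.3 and 52.2 CPM (3.64-fold lower). Scn4a, the main muscle sodium channel, and Clcn1, the chloride channel, were also among the higher genes and are named after their values were seen.

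Of the energy lists, glycolysis held the most higher genes. Of 28 genes of glycolysis, glycogen and phosphagen 9 were higher, 4 lower and 15 within 2-fold (median 0.57). With TMM factors 14 were higher (median 0.96), and 7 were without marker-rich nuclei. Beside Pfkfb3, Pfkfb1, a related enzyme, had 267 and 24.7 CPM (10.8-fold, 9.63 to 12.2) and a start-site peak with 1441 counts in adult but none at P5. Phka1, a subunit of the kinase that switches on glycogen breakdown, had 2199 and 435 CPM (5.05-fold), Hk2, hexokinase, 369 and 90.3 CPM (4.09-fold) and Pfkm, the muscle phosphofructokinase, 518 and 154 CPM (3.36-fold). Eno1, the enolase of non-muscle cells and early muscle, was lower at 10.3 and 71.7 CPM (6.93-fold).

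Genes of fatty acid and mitochondrial energy were mostly within 2-fold, 20 of 27 and 18 of 23. With TMM factors 2 in place of 5 fatty acid genes were lower, and 5 in place of 2 mitochondrial genes were higher. Acsl6, an acyl-CoA synthetase, was 3.51-fold higher (2.99 to 4.14) with 1.51 log2 units more ATAC counts (0.85, within 2-fold, with shared peaks alone), and Mb, myoglobin, 2.44-fold higher. Cd36, the fatty acid carrier of the membrane, was 2.57-fold lower (344 and 883 CPM) and Fabp3, a fatty acid binding protein, 2.22-fold lower. Ppara, a receptor that drives fat oxidation genes, was 2.66-fold higher (156 and 58.6 CPM), and Cox6a2, a muscle subunit of cytochrome oxidase, 9.19-fold lower (1.82 and 16.7 CPM).

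The neuromuscular junction and the fiber ends were lists with many lower genes. Of 22 junction genes 18 were lower and 0 higher (median -2.69, and -2.76 without marker-rich nuclei). The acetylcholine receptor subunits Chrna1 and Chrng had 0.605 and 38.7 CPM (63.9-fold, 36.2 to 125) and 0.0505 and 5.38 CPM (107-fold, 18.47 to 4272), and Chrnd had 0 adult UMIs against 7.82 CPM (at least 51.7-fold). Start-site ATAC followed for Chrna1 (-2.37) and Chrnd (-2.79), and Chrng had a peak at P5 alone. Col25a1, a membrane collagen needed for innervation, had 3.03 and 166 CPM (54.9-fold, 42.5 to 72.3), and Utrn, the dystrophin relative utrophin, 61.9 and 670 CPM (10.8-fold). Musk, Dok7, Rapsn and Agrn were within 2-fold. Of 15 myotendinous junction genes 12 were lower, and 9 without marker-rich nuclei: Fras1, a basement membrane protein, had 50.1 and 719.5 CPM (14.4-fold), with 793.5 CPM at P5 without marker-rich nuclei, whereas Ebf1, a transcription factor also of mesenchymal cells, went from 9.05-fold lower to within 2-fold.

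All 21 matrix genes were lower in adult (median -5.03), and the marker-rich P5 nuclei moved with this list more than with any other of the 27. Without them 19 stayed lower and the median was -2.51. Col1a1 and Col1a2, the chains of type I collagen, had 363 and 592 CPM at P5 and 77.4 and 76.6 CPM without those nuclei, against 4.29 and 6.71 CPM in adult. Both are among the 97 markers that defined those nuclei, so a fall in their P5 level was built into leaving the nuclei out. Fbn2, the fetal fibrillin, had 112 CPM at P5, 43.5 CPM without those nuclei and 0.454 CPM in adult (248-fold lower). How much of the P5 matrix RNA came from other cells or from free RNA was not tested.

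Imprinted genes formed the list with the lowest median, -6.16, and 17 of 18 were lower, with Impact within 2-fold. Outside the domains above, Plagl1, a zinc finger factor of the imprinted gene network, had 0.757 and 157 CPM (208-fold, 126 to 372), with 64.8 CPM at P5 without marker-rich nuclei. Grb10, an inhibitor of insulin signaling, had 95.5 and 1318 CPM (13.8-fold, 13.16 to 14.49), with ATAC within 2-fold. Lower genes of the list thus also lay outside the Dlk1-Meg3 and Igf2 regions.

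Of 23 fusion and myogenesis genes 15 were lower, 6 within 2-fold and 2 higher. Mymk, the fusion protein myomaker, had 0 UMIs in adult and 46 at P5 (3.75 CPM, at least 24.8-fold), and Klf5, a transcription factor of fetal fibers, 4.14 and 32.7 CPM (7.91-fold, 6.23 to 10.2). Cdh2, the adhesion protein N-cadherin, had 29.1 CPM at P5 but 3.38 CPM without marker-rich nuclei, against 0.353 CPM in adult. The 2 higher genes, Pax3, a myogenic factor of the embryo, and Stab2, a scavenger receptor, were named after their values were seen. Embryonic factors were lower in 11 of 15 (median -2.82): the RNA-binding proteins Igf2bp2 and Igf2bp3 had 3.08 and 3.33 CPM in adult and 156 CPM each at P5 (50.7-fold and 46.8-fold), and Sox11, a developmental factor, had no adult UMI and 168 at P5 (at least 90.4-fold).

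Of 30 hormone receptors and adult factors 10 were higher, 4 lower and 16 within 2-fold (median 0.49). Beside Thrb, Esr1, the estrogen receptor, had 833 and 151 CPM (5.50-fold, 5.24 to 5.77), and Rxra, the shared partner of nuclear receptors, 73.6 and 16.1 CPM (4.56-fold). Maf, a factor of adult fast fibers, had 704 and 218 CPM (3.23-fold, 3.10 to 3.37), with ATAC at its start within 2-fold (-0.10). Thinned shares with a Maf UMI were 47.5% and 18.2% (unthinned, 76.4% and 52.5%), against 14.3% and 10.5% in Ttn-poor nuclei. Vdr, the vitamin D receptor, was lower at 2 and 21 UMIs (17.0-fold, 4.14 to 149), with 0.529 CPM at P5 without marker-rich nuclei.

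Clock output genes, which follow the time of day, were higher in 7 of 21 and lower in 2. The higher genes were 12 with TMM factors and 9 without marker-rich nuclei. Dbp, an output factor, had 47.02 and 3.503 CPM (13.4-fold, 9.89 to 18.7), Ciart, a clock repressor, 11.1 and 0.652 CPM (17.0-fold, 8.49 to 40.0) and Nr1d2, a heme-binding repressor, 507 and 146 CPM (3.48-fold). The activators Clock (64.9 and 255 CPM, 3.94-fold) and Npas2 (3.94 and 44.9 CPM, 11.4-fold) were lower. The hour of dissection is not given in the sources used here, so age and hour cannot be told apart for these genes. Of 15 immediate early genes 8 were lower, 2 higher and 5 within 2-fold, with the nuclear receptors Nr4a1 (370 and 87.2 CPM, 4.24-fold) and Nr4a3 (65.9 and 16.1 CPM, 4.11-fold) higher and Egr1, an early response factor, lower (0.555 and 4.24 CPM, 7.63-fold).

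Of 24 genes of atrophy, FoxO and glucocorticoid response, 9 were higher and 4 lower (median 0.83), and without marker-rich nuclei 13 were higher and with TMM factors 14. Fbxo40, a ubiquitin ligase adaptor of muscle, had 249 and 36.3 CPM (6.88-fold, 6.242 to 7.597) and 1.85 log2 units more ATAC counts, over 4 peaks of 2729 bases in adult and 2 of 1240 bases at P5 (1.45 with shared peaks alone). Klf15 and Zbtb16, both glucocorticoid targets, had 34.5 and 7.41 CPM (4.65-fold) and 893 and 226 CPM (3.96-fold), and Bnip3, a mitophagy receptor, 71.9 and 15.4 CPM (4.67-fold). Zbtb16 differed between the ages in Ttn-poor nuclei as well, with a UMI in 64.8% of thinned adult and 3.16% of thinned P5 ones. Cdkn1a, a cell cycle inhibitor, was lower (0.706 and 10.1 CPM, 14.3-fold). Of 10 polyamine genes 5 were higher and 2 lower: beside Smox and Amd1, Sat1, which acetylates polyamines, was 2.21-fold higher, and Amd2, a near copy of Amd1 with which it may share reads, had 64 and 6 UMIs, while Sms, spermine synthase, was 2.08-fold and Azin1, an inhibitor of antizyme, 3.24-fold lower.

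The insulin and dystrophin lists lay near the shares over all measured genes, 33.9% lower and 8.28% higher. Of 27 genes of insulin, IGF, myostatin and mTOR signaling 10 were lower and 4 higher. Igf1, insulin-like growth factor, had 12.5 and 114 CPM, with 26.4 CPM at P5 without marker-rich nuclei, and Fst, follistatin, had 0.757 and 16.3 CPM (21.5-fold). In the dystrophin complex and membrane repair list 9 of 22 were lower and 2 higher: Sntb1, a syntrophin, had 48.3 and 1202 CPM (24.9-fold, 23.3 to 26.6) and Nos1, the neuronal nitric oxide synthase of fibers, 198 and 73.2 CPM (2.71-fold higher). Sntb2, the related syntrophin, was 2.77-fold lower, but its direction turned without marker-rich nuclei (21.4 and 14.3 CPM).

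Of 22 integrins, laminins and adhesion genes 15 were lower and 1, Lama5, named after its value was seen, was higher. Itga5, the fibronectin receptor subunit, had 1.11 and 43.9 CPM (39.6-fold, 25.9 to 63.7) and the same P5 level without marker-rich nuclei (43.8 CPM). Of 19 cell cycle genes 18 were lower, with Ccnd1, a cyclin, at 1 and 75 UMIs (121-fold, 21.1 to 4845) and Top2a, a topoisomerase of dividing cells, at 9.45 CPM at P5 and 3.07 CPM without marker-rich nuclei. Of 19 ribosome and translation genes 12 were lower, led by Eef1a1, the translation elongation factor of young muscle (0.706 and 43.4 CPM, 61.5-fold, 36.3 to 113) with 2.40 log2 units fewer ATAC counts. Ribosomal and elongation factor genes have many near-identical copies, so their counts are uncertain. The other ribosomal genes named, Rpl3, Rpl13, Rps2, Rps19 and Rplp0, were 4.28-fold to 7.83-fold lower, with ATAC within 2-fold. Of 20 heat shock and proteasome genes 13 were within 2-fold, and of 10 nuclear RNA and quality genes 9 were, among them Malat1, a nuclear RNA, at 37507 and 29980 CPM (1.25-fold).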

How the data were processed

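The deposited files hold UMI counts per gene and ATAC counts per peak for each nucleus, made by the authors with Cell Ranger ARC 2.0.0 on mm10 (per the submitters' processing notes), with intronic reads included and peaks called within each library. The deposited start and end coordinates (other values) were used as given. Counts were summed over myonuclei, because nuclei are not replicates, and scaled to CPM. Ratios carry exact conditional (Clopper-Pearson) and levels exact Poisson 95% intervals, for counting error only. Scripts were tested on simulated data.

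Genes were named by a fixed rule: the 15 highest and 15 lowest by the bound nearest 1 with at least 50 CPM (leaving out mitochondrial and Y-linked genes, Ttn, Xist, Tsix and gene models without a proper symbol), 6 myosin heavy chains, Maf, and up to 6 members of each list by the same bound, plus members needed to say which stayed within 2-fold. The myonuclei rule, lists and genes were chosen with earlier results of these data known. Of 35 genes outside the lists, 30 had a RefSeq promoter. Tools were scipy 1.17.1 and numpy 2.4.6 under Python 3.11.15, with pandas 2.3.3, and edgeR 4.0.16 in R 4.3.3 for TMM factors alone. Alternatives changed scaling, filters on counts and nuclei, depth, weights, fiber type and ATAC windows. Groups came from the age labels. Some items are not reported here.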

Additional observations from a re-analysis of the deposited data

Results flagged for a closer look

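Of the 141 named genes with enough UMIs for the comparison, 7 differed between the ages in opposite directions in myonuclei and in the nuclei with under 0.1% Ttn, at least 2-fold each way. All 7 were lower in adult myonuclei and higher in adult Ttn-poor nuclei, and the difference between the contrasts was not tested. Cd36 had a log2 ratio of -1.36 in myonuclei and 2.98 in Ttn-poor nuclei (691 CPM in adult and 87.5 CPM at P5). For Angptl4, a lipoprotein lipase inhibitor, the ratios were -4.50 and 1.93, for Sntb1 -4.64 and 1.81, and for Casq2 -5.75 and 1.70. Ucp2, a mitochondrial carrier, gave -5.33 and 1.58, Dnaja4, a chaperone, -1.57 and 1.42, and Pdlim3 -1.94 and 1.06. The adult Ttn-poor nuclei numbered 300, and Ucp2, Dnaja4 and Casq2 had only 6, 10 and 16 UMIs in them. Casq2, Sntb1 and Pdlim3 are muscle genes, and fiber RNA outside its own nuclei was not measured apart.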

How the results depend on the processing

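Of 4095 values of single genes, lists and medians under the alternatives, 3068 were labeled the same and 1023 moved. For ATAC ratios, the same meant inside the counting interval of the first value, so the label depends on depth and not on the size of the move. Another 4 values, past 2-fold in the first count, turned direction. These were log2 ratios of Sntb2 without nuclei over the 0.5% marker limit (0.58), over a 0.2% limit (1.26) and with the 0.5% limit and TMM factors (0.75), and of Ebf1 at the 0.2% limit (0.72). The 0.2% limit and the 0.5% limit with TMM were chosen after seeing the data. The count of higher genes, 1145, was 1959 with TMM factors, 1989 with median-of-ratios factors and 1817 with the 0.5% limit and TMM. The count of lower genes, 4685, was 2338 with at least 100 UMIs, 9429 with at least 1 UMI, 1966 after thinning to 1000 UMIs, 2797 at the 0.2% limit and 2909 with the 0.5% limit and TMM. Fewer or more genes were measured in these filters, and for the scalings the cause was not tested. Genes with more ATAC counts, 265, were 148 when only shared peaks were used. The 12 lists whose median was at least 1 log2 unit from 0 kept their direction under every alternative run. Of the other 15 medians 6 changed sign under at least 1 alternative: excitation-contraction coupling (-0.41 to 0.13), fatty acid (-0.48 to 0.12), giant and Z-disc (-0.32 to 0.24), membrane excitability (-0.02 to 0.50), mitochondrial (-0.07 to 0.41) and nuclear RNA (-0.31 to 0.50), so no direction is read from them. Of named genes within 2-fold, 3 of 10 by RNA and 22 of 95 by ATAC changed sign. No paired analysis was possible because each age has 1 library, and no replicate could be left out. Depth limits the genes with few UMIs, and strand, doublets and free RNA were not resolved.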

Other observations

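Gene length went with the ratio between the ages. Measured genes under 5 kb had a median log2 ratio of -1.07 (1289 genes, 674 lower and 98 higher), against -0.40 for 4233 genes of 5 to 20 kb, -0.24 for 6005 genes of 20 to 100 kb and -0.74 for 2290 genes over 100 kb. Without the marker-rich nuclei the medians were -0.98, -0.27, -0.10 and -0.40. Gm42418 and Gm26917, gene models that overlap ribosomal RNA repeats, took 4.06% of adult and 0.519% of P5 UMIs, and Malat1 took 3.75% and 3.00%.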
